A study of Mus musculus with 8 samples.

Results

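Apoe, Apoc1, Vcam1 and Pebp1 are 4 mouse genes that were chosen by the length of their poly(A) tails: after busulfan, tails were shorter in testes without TENT5C catalytic activity than in wild-type testes. All their transcripts in the deposited tables (there spelled apoe, apoc1, vcam1 and pebp1) were taken, which gave 8 of 2783 transcripts and 3713 of 621202 reads (4 of 2243 gene symbols). The tails of the busulfan groups chose the genes, so these tails are described with no test. The samples were whole testes of adult male mice, and each of the 8 samples came from 1 mouse, with 2 mice in each of 4 groups. Mice were Tent5c wt/wt (WT) or Tent5c dcat/dcat (DCAT, both copies catalytically dead), and both genotypes were given either vehicle (veh, dimethyl sulfoxide and water) or 1 injection of busulfan at 20 mg/kg (bsf). Testes were collected 4 weeks later. The dcat allele is carried by every cell of the mouse, so germ cells and somatic cells lack the activity alike.

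TENT5C is a poly(A) polymerase. It adds adenosines to the 3′ ends of mature mRNAs, and in other tissues it is known for acting on mRNAs that are translated at the endoplasmic reticulum, such as those of secreted proteins. A longer tail binds more poly(A)-binding protein and usually protects an mRNA from decay, although the relation of tail length to translation differs between cell types. Busulfan alkylates DNA and depletes the germ cells that divide, so that RNA of the somatic cells makes up more of a testis after treatment. Apoe encodes apolipoprotein E, a secreted lipid carrier that binds receptors of the LDL receptor family. Apoc1 encodes a small secreted apolipoprotein and lies beside Apoe. Vcam1 encodes a cell adhesion protein of the immunoglobulin superfamily, which is made at the endoplasmic reticulum, is carried on the cell surface and binds integrins. Pebp1 encodes phosphatidylethanolamine-binding protein 1, a cytosolic protein that is also known as Raf kinase inhibitor protein. 

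The annotation (GENCODE vM21, GRCm38) places all 8 transcripts on the minus strand. Apoc1 had 1 transcript (ENSMUST00000045035, chr7:19689481-19692660, 4 exons, 88 residues). It lies 3448 bases from Apoe, which had 4 transcripts. The Apoe transcript with the most reads (ENSMUST00000174064, chr7:19696109-19699188) ended 163 bases further downstream than the other 3 (ENSMUST00000174355, ENSMUST00000173739 and ENSMUST00000003066), and all 4 encode 1 protein of 311 residues. The aligner assigned each read to 1 of these overlapping transcripts, so their separate counts are uncertain and the Apoe total is also given. Vcam1 had 2 transcripts with different last exons. The short transcript (ENSMUST00000196449, chr3:116122280-116129457) has 5 exons and encodes 345 residues. The long transcript (ENSMUST00000029574, chr3:116109949-116129688) has 9 exons and encodes 739 residues. They share 1018 exonic bases, none of them in the last exon of the short transcript, and their 3′ ends lie 12331 bases apart. A truncated, lipid-anchored form of VCAM1 is known in mice, but whether the short transcript encodes it was not examined. Pebp1 had 1 transcript (ENSMUST00000036951, chr5:117282654-117287625, 4 exons, 187 residues).

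The tail is added at the 3′ end, so the last 30 bases of the transcript before the tail are shown for each distinct 3′ end. Capitals mark the poly(A) signal AATAAA, searched with its variant ATTAAA on the transcript strand.
Apoc1, chr7:19689481-19689510, minus strand: cagaccAATAAAaaacgtgtagaaggcaaa
Apoe, main transcript, chr7:19696109-19696138, minus strand: ctaggacctagcaacataaaagaacaagtg
Apoe, the other 3 transcripts, chr7:19696272-19696301, minus strand: ggcccttgcttAATAAAgattctccgagca
Vcam1, short transcript, chr3:116122280-116122309, minus strand: ttgaaccctcaatatatagatacatgtgaa
Vcam1, long transcript, chr3:116109949-116109978, minus strand: aaatagacaaatttattcatatcaccttaa
Pebp1, chr5:117282654-117282683, minus strand: gtcaagtacaAATAAAaaggcattgcattc
In Apoc1, 18 bases followed the signal, in Pebp1 14 and in the shorter-ended Apoe transcripts 13. The same Apoe signal stood 176 bases before the end of the main transcript. Neither Vcam1 window held AATAAA or ATTAAA, and nor did that of the main Apoe transcript. Of the 2738 deposited transcripts found in the annotation, 55.6% held AATAAA in this window, 14.2% held ATTAAA and 68.0% held either.

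Libraries held 29574 to 129074 reads, of which 0.414% to 0.755% belonged to the 4 genes. Marker genes described the tissue after busulfan. The 10 late spermatid genes summed to 102500 and 115300 reads per 1000000 (CPM) in WT_veh and to 7873 and 10190 in WT_bsf. They were higher in DCAT_bsf, at 20310 and 37020 CPM. The 9 Leydig cell genes that were read (of 10 listed, Lhcgr not in the table) summed to 45250 and 49350 CPM in WT_bsf and to 28460 and 23630 in DCAT_bsf. Without Insl3 the Leydig sums were 13730 and 12990 in WT_bsf and 13340 and 9886 in DCAT_bsf. Sertoli genes (7 of 10 read) gave 29260 and 28280 in WT_bsf and 26450 and 18420 in DCAT_bsf. Of 14 macrophage genes 3 were read, and they summed to 954 and 1074 CPM in WT_bsf and 878 and 703 in DCAT_bsf. Peritubular genes (2 of 5 read) gave 1529 and 1464 CPM in WT_bsf and 1252 and 1200 in DCAT_bsf. Of 8 endothelial genes 0 were in the table. Spermatocyte genes (4 of 7 read) summed to 636 and 788 CPM in WT_bsf and to 1415 and 3382 in DCAT_bsf. Erythroid genes (2 of 5 read, both globins) gave 924 and 771 CPM in WT_bsf and 0 and 20.7 in DCAT_bsf, against 177 and 291 in WT_veh and 135 and 15.5 in DCAT_veh. The part of these differences in the results on the 4 genes was not tested. In whole testis, fewer cells of a type and less RNA per cell cannot be told apart.

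After busulfan, 7 of the 8 transcripts reached 10 reads in every library of both groups, which a fit of mean tail length (limma) required here. The exception was Apoe transcript ENSMUST00000173739, with 8 reads in DCAT_bsf replicate 1. Over all 1188 transcripts in this fit, 1.01% had shorter tails in DCAT_bsf than in WT_bsf at an adjusted p under 0.05. Of the 12 such transcripts 4 belonged to these genes (Apoc1, the short Vcam1 transcript, Pebp1 and the main Apoe transcript), which is the choice itself and no result.

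Apoc1 had the largest difference of the 4 genes. Its mean tail was 162 and 168 nucleotides (nt) in the WT_bsf libraries, from 56 and 109 reads. In the DCAT_bsf libraries it was 101 and 102 nt, from 33 and 46 reads. Group means differed by -63.3 nt (165 ± 3.98 and 102 ± 1.01, SD, n = 2). Both DCAT_bsf libraries lay below both WT_bsf libraries, in the contrast that chose the gene. Short tails (30 to 120 nt) made up 17.9% and 12.8% of Apoc1 reads in WT_bsf (Wilson 95% confidence intervals 10 to 29.8 and 7.81 to 20.4). In DCAT_bsf they made up 63.6% and 65.2% (46.6 to 77.8 and 50.8 to 77.3). Tails over 210 nt remained in both genotypes, in 10.7% and 12.8% of WT_bsf reads and in 6.06% and 2.17% of DCAT_bsf reads. These intervals cover counting error only.

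The 2 Vcam1 transcripts had unlike tail differences. For the short transcript the mean tail was 157 and 155 nt in WT_bsf (81 and 120 reads) and 99.5 and 114 nt in DCAT_bsf (36 and 44 reads), a difference of -49.1 nt (156 ± 1.03 and 107 ± 10.4, SD, n = 2). For the long transcript it was 144 and 122 nt in WT_bsf (27 and 46 reads) and 140 and 126 nt in DCAT_bsf (26 and 24 reads), a difference of 0.31 nt (133 ± 15.3 and 133 ± 9.75, SD, n = 2). The groups did not overlap for the short transcript and overlapped for the long one. Short tails made up 28.4% and 29.2% of reads in WT_bsf and 69.4% and 59.1% in DCAT_bsf for the short transcript. For the long transcript the share was 29.6% and 50% in WT_bsf and 30.8% and 33.3% in DCAT_bsf. Tails over 210 nt made up 17.3% and 19.2% of the short transcript's reads in WT_bsf. In DCAT_bsf they were 0 of 36 reads in replicate 1 (95% interval up to 9.64%) and 3 of 44 reads in replicate 2. Among the 1188 transcripts ordered by tail difference, from the most shortened, the short Vcam1 transcript stood at place 10 and the long one at place 485. The transcript was chosen by this contrast, and the difference between the transcripts was not tested.

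Mean tails of all 4 Apoe transcripts were shorter in DCAT_bsf. For the main transcript the mean tail was 136 and 135 nt in WT_bsf (63 and 94 reads) and 89.2 and 107 nt in DCAT_bsf (41 and 59 reads), a difference of -36.9 nt (135 ± 0.67 and 98.2 ± 12.7, SD, n = 2). The DCAT_bsf replicates lay further apart than the WT_bsf replicates, and the groups did not overlap. The differences of the other 3 transcripts were -33.7 nt (ENSMUST00000003066), -32.8 nt (ENSMUST00000174355) and -32.7 nt (ENSMUST00000173739). Within replicates 1 and 2 the last of these was -54.7 and -10.8 nt, the first resting on the 8 reads of DCAT_bsf replicate 1. With all Apoe reads pooled within a library, means were 135 and 133 nt in WT_bsf and 92.1 and 107 nt in DCAT_bsf. Short tails made up 38.5% and 37.7% of all Apoe reads in WT_bsf and 84.2% and 60.4% in DCAT_bsf. Reads assigned to transcripts with either annotated Apoe 3′ end were thus shorter-tailed in DCAT_bsf. Where the reads themselves ended was not examined.

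Pebp1 had the most reads and the smallest difference of the 4 genes. Its mean tail was 126 and 137 nt in WT_bsf (209 and 421 reads) and 98.5 and 111 nt in DCAT_bsf (260 and 373 reads), a difference of -26.9 nt (132 ± 7.76 and 105 ± 8.61, SD, n = 2). The groups did not overlap. The upper end of the distribution differed most: the 75th percentile was 160 and 185 nt in WT_bsf and 118 and 145 nt in DCAT_bsf, whereas the 25th percentile was 80.3 and 83.8 nt in WT_bsf and 70.0 and 68.6 nt in DCAT_bsf. Tails over 210 nt made up 12% and 15.9% of Pebp1 reads in WT_bsf and 3.08% and 3.49% in DCAT_bsf. For Apoc1 the 25th percentile was 137 and 147 nt in WT_bsf and 57.5 and 66.7 nt in DCAT_bsf.

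Each replicate number is 1 multiplexed sequencing library that held a mouse of every group, so the difference can be read within each. Within replicates 1 and 2 it was -61.2 and -65.4 nt for Apoc1, -57.2 and -41.1 nt for the short Vcam1 transcript, -46.4 and -27.5 nt for the main Apoe transcript and -27.5 and -26.3 nt for Pebp1. For the long Vcam1 transcript it was -3.62 and 4.24 nt. Replicate 2 gave the smaller difference for the main Apoe transcript and the short Vcam1 transcript and the larger for Apoc1. For Pebp1 both replicates gave nearly the same difference. These values are from the contrast that chose the genes and were not tested.

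**Figure D1:**
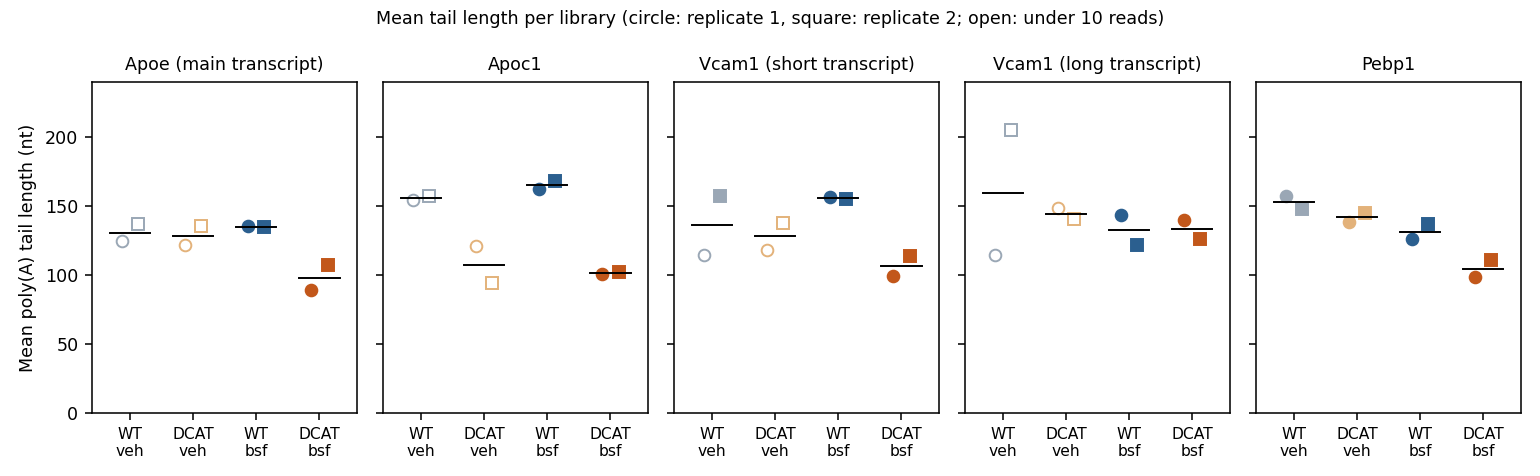
Mean poly(A) tail length in nt (vertical axis) in each library of the 4 groups (horizontal axis) for 5 transcripts. Each point is 1 library, open where it rests on under 10 reads, and bars are group means. Apoc1, the short Vcam1 transcript, the main Apoe transcript and Pebp1 lie lower in DCAT_bsf than in WT_bsf, and the long Vcam1 transcript overlaps.

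**Figure D2:**
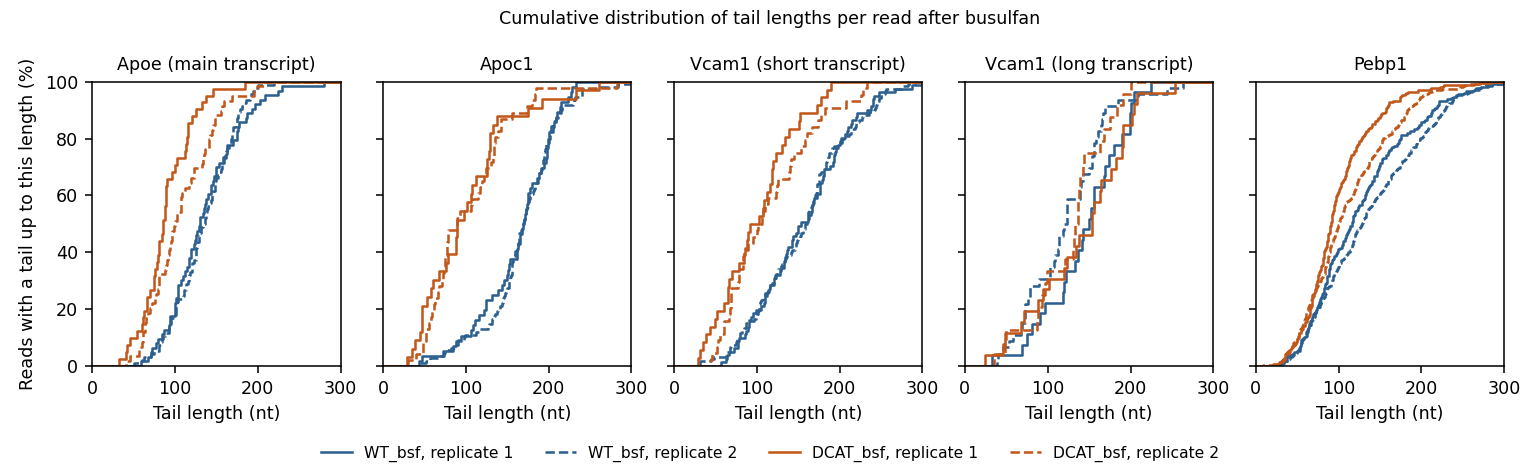
Percentage of reads (vertical axis) with a tail up to a given length in nt (horizontal axis) in the 4 busulfan libraries, with 1 line per library. The DCAT_bsf lines lie left of the WT_bsf lines over most lengths for Apoe, Apoc1 and the short Vcam1 transcript. For Pebp1 the lines part mainly above 80 nt, and for the long Vcam1 transcript they cross.

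The tails were compared with those of the other transcripts of the same library. In WT_bsf, Apoc1 was longer than 92.1% and 94.7% of transcripts with at least 10 reads, the short Vcam1 transcript than 89.8% and 88.6%, the main Apoe transcript than 74.4% and 68.5%, and Pebp1 than 62.5% and 71.5%. In DCAT_bsf the same 4 transcripts were longer than 9.54% to 29.3% of transcripts. The long Vcam1 transcript was longer than 81.5% and 49.3% in WT_bsf and than 75.3% and 49.1% in DCAT_bsf. The library medians of transcript means were 119 and 122 nt in WT_bsf and 122 and 127 nt in DCAT_bsf. Apoc1, the short Vcam1 transcript, the main Apoe transcript and Pebp1 lay above these medians in WT_bsf and below them in DCAT_bsf. Their choice by this contrast favoured such positions, which are no result. Among transcripts with shorter tails, the last inside the threshold was the main Apoe transcript. Just outside stood Smcp (-30.8 nt), Agt (-20.7 nt) and Ywhaq (-32.3 nt), so nearby values fell on both sides.

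**Figure D3:**
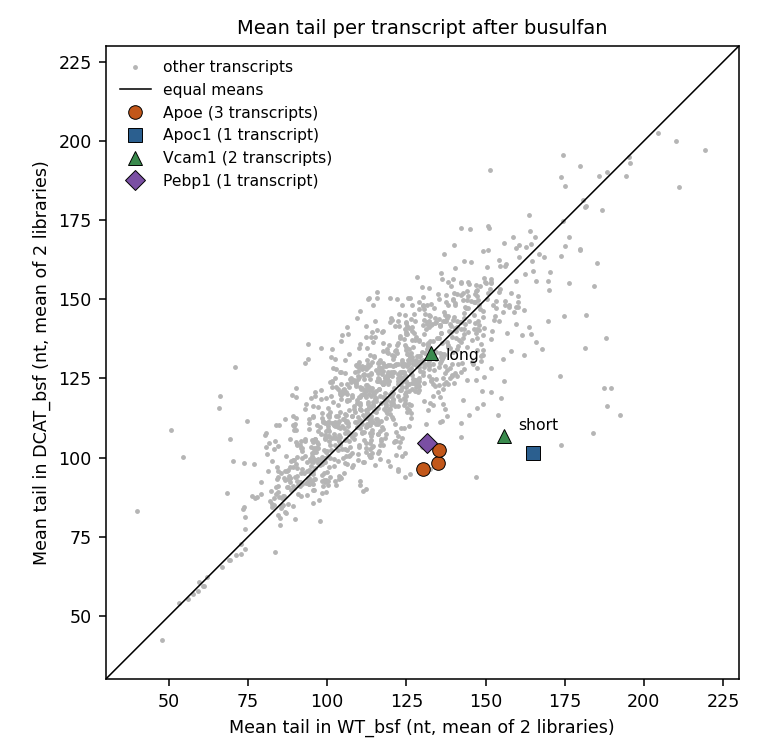
Mean tail in WT_bsf (horizontal axis, nt) and DCAT_bsf (vertical axis, nt) for the 1188 transcripts with at least 10 reads in each busulfan library, each value the mean of 2 libraries. The line marks equal means. The long Vcam1 transcript lies on it, and the other 6 transcripts of the 4 genes lie below it.

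The vehicle libraries show whether the genotypes also differed without busulfan, in samples that did not enter the choice. Of the 4 genes only Pebp1 had 10 reads in each vehicle library. Its mean tail was 157 and 148 nt in WT_veh (187 and 353 reads) and 139 and 145 nt in DCAT_veh (130 and 581 reads). The groups did not overlap, but the difference of -11.0 nt (SE 4.60) did not pass the test (limma adjusted p = 0.989, unadjusted p = 0.026). It was -18.8 and -3.17 nt within replicates 1 and 2, -6.24 nt without WT_veh replicate 1 and -15.7 nt without WT_veh replicate 2. Of 720 transcripts tested 0.139% passed, which is 1 transcript (0 with the replicate block). An unadjusted p under 0.05 was found for 34 of the 720 (limma), no more than this threshold gives when no tail differs. The vehicle difference had the direction of the busulfan difference, and whether the 2 differ in size was not tested. The share of short tails was 19.3% and 26.1% in WT_veh and 36.9% and 31.2% in DCAT_veh.

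For the other genes the vehicle libraries held few reads, and these values are given with no test. Apoc1 means were 154 and 157 nt in WT_veh (6 and 8 reads) and 121 and 94.6 nt in DCAT_veh (2 and 5 reads). Apoe, all transcripts pooled, had 133 and 126 nt in WT_veh (11 and 9 reads) and 122 and 126 nt in DCAT_veh (5 and 14 reads). The short Vcam1 transcript had 114 and 158 nt in WT_veh (5 and 10 reads) and 118 and 138 nt in DCAT_veh (5 and 6 reads). Apoc1 was thus lower in both DCAT_veh libraries, while the Vcam1 and Apoe groups overlapped. Tail differences of these genes were not tested here, because they lay under the minimum of 10 reads.

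Within a genotype, the genes differed in how tails compared between vehicle and busulfan. In wild type, group means from WT_veh to WT_bsf went from 156 to 165 nt for Apoc1, from 136 to 156 nt for the short Vcam1 transcript and from 130 to 135 nt for the main Apoe transcript, whereas Pebp1 went from 153 to 132 nt. In the mutant, means from DCAT_veh to DCAT_bsf went from 108 to 102 nt for Apoc1, from 128 to 107 nt for the short Vcam1 transcript, from 129 to 98.2 nt for the main Apoe transcript and from 142 to 105 nt for Pebp1. The library medians of transcript means went from 146.5 and 147.6 nt in WT_veh to 118.5 and 122.5 nt in WT_bsf. In the mutant these medians went from 140.1 and 149.1 nt to 121.7 and 126.7 nt. Shorter tails after busulfan were thus not particular to Pebp1. The values of the 4 genes share their busulfan libraries with the contrast that chose the genes and are not tested.

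CPM of Apoe, Apoc1 and Vcam1 were higher in all busulfan libraries than in all vehicle libraries when the transcripts of a gene were summed, and those of Pebp1 did not pass the test in either genotype. The deposited table kept a transcript only if it had at least 10 reads in both replicates of some group. The 7 transcripts of Apoe, Apoc1 and Vcam1 met this in busulfan groups and in no vehicle group, so this favoured a rise after busulfan, and their counts are described with no test. Of all 2783 transcripts 35.4% were higher after busulfan in wild type and 31.3% in the mutant (edgeR adjusted p under 0.05), and 38.3% and 31.4% were lower. Of the 1207 transcripts that were kept through busulfan groups alone, 69.8% were higher in wild type and 61.1% in the mutant. Over all 2783 transcripts, the number that was higher in the mutant was 871, and 391 with DESeq2.

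The main Apoe transcript had 5 and 6 reads in WT_veh and 63 and 94 in WT_bsf. In the mutant it had 3 and 8 reads in DCAT_veh and 41 and 59 in DCAT_bsf. All busulfan libraries were above all vehicle libraries, at 610 to 954 CPM against 62.0 to 101 CPM. The fitted log2 fold change was 3.22 (SE 0.47) in wild type and 3.13 (SE 0.50) in the mutant. The other 3 Apoe transcripts had 0 to 3 reads in each vehicle library. Their pooled read ratios of busulfan to vehicle in wild type were 32.5 (exact 95% counting interval 5.56 to 1310) for ENSMUST00000174355, 8.80 (2.80 to 44.5) for ENSMUST00000173739 and 4.74 (1.85 to 15.5) for ENSMUST00000003066. In the mutant they were 14.5 (3.68 to 126), 13 (3.26 to 113) and 5.52 (1.87 to 22.0). These intervals are wide, since the vehicle reads were so few. With all Apoe reads summed, the ratio was 9.45 (6.0 to 15.7) in wild type and 9.34 (5.81 to 15.9) in the mutant.

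Apoc1 had 6 and 8 reads in WT_veh, 2 and 5 in DCAT_veh, 56 and 109 in WT_bsf and 33 and 46 in DCAT_bsf. Its fitted log2 fold change after busulfan was 2.92 (SE 0.46) in wild type and 3.44 (SE 0.55) in the mutant. The groups ranked in the same order as for the main Apoe transcript, both busulfan groups above both vehicle groups.

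The short Vcam1 transcript had 5 and 10 reads in WT_veh, 5 and 6 in DCAT_veh, 81 and 120 in WT_bsf and 36 and 44 in DCAT_bsf. Its fitted log2 fold change was 3.15 (SE 0.47) in wild type and 2.75 (SE 0.54) in the mutant. The value in the mutant was 3.43 without DCAT_veh replicate 1 and 1.73 without DCAT_veh replicate 2. The long transcript had 1 and 2 reads in WT_veh, 2 and 4 in DCAT_veh, 27 and 46 in WT_bsf and 26 and 24 in DCAT_bsf. Because the vehicle reads were so few, its change in wild type is given as a ratio of 16.5 (exact 95% counting interval 5.42 to 81.8). Its ratio in the mutant was 8.36 (3.58 to 23.9). For both transcripts every busulfan library had a higher CPM than every vehicle library.

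Pebp1 had 3684 and 4893 CPM in WT_veh, 4396 and 4501 in DCAT_veh, 3164 and 3647 in WT_bsf and 4229 and 3857 in DCAT_bsf. It had the most reads of the 4 genes in every library, on a scale where 1 read is 1 molecule and counts need no division by length. Its log2 fold change after busulfan was -0.37 (SE 0.31, edgeR adjusted p = 0.276) in wild type and -0.12 (SE 0.31, edgeR adjusted p = 0.736) in the mutant. It turned to 0.16 without WT_veh replicate 2 and to 0.02 without DCAT_veh replicate 2.

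**Figure D4:**
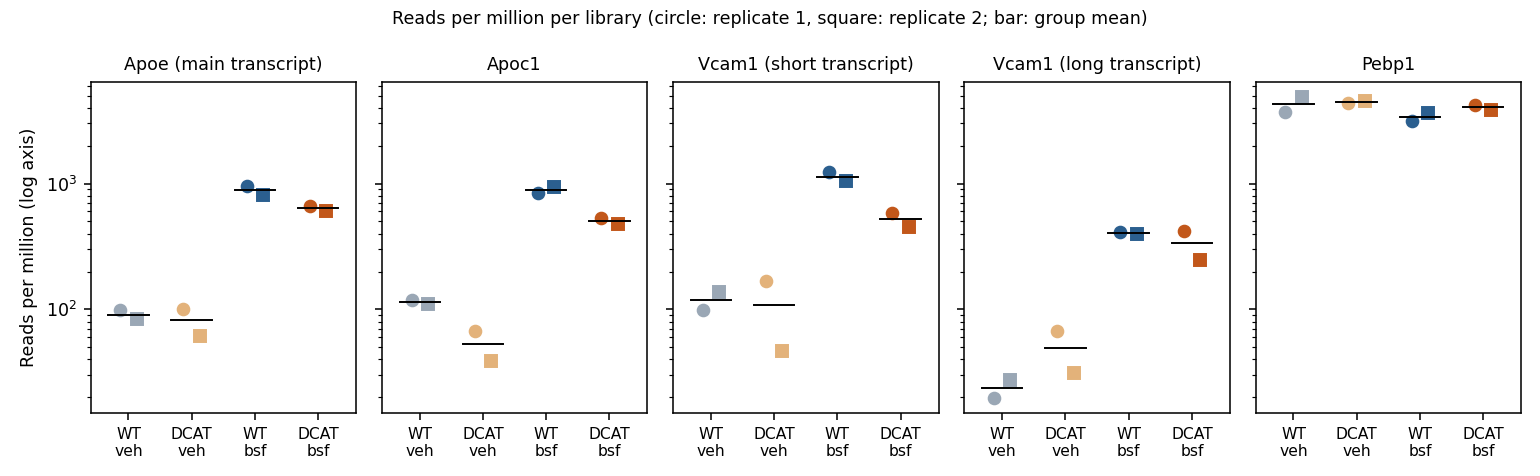
CPM on a log axis (vertical) in each library of the 4 groups (horizontal) for 5 transcripts. Each point is 1 library and bars are group means. All busulfan libraries lie above all vehicle libraries for Apoe, Apoc1 and both Vcam1 transcripts, and Pebp1 lies between 3164 and 4893 throughout.

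Between the genotypes after vehicle, none of the 8 transcripts passed the test for read count (edgeR adjusted p = 1 for each). Apart from Pebp1 they had few reads in the vehicle libraries, so a difference could be missed. Of all transcripts 0% passed, and 65 had an unadjusted p under 0.05 (19 with DESeq2, which also called 0). Log2 differences ranged from -1.30 for Apoc1 (SE 0.69) to 0.65 for the long Vcam1 transcript (SE 1.01). Pebp1 differed by 0.05 (SE 0.31), and this sign turned with RLE size factors and with DESeq2.

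Between the genotypes after busulfan, counts are given as a description, since this contrast chose the genes. DCAT_bsf had fewer reads of the short Vcam1 transcript (586 and 455 CPM against 1226 and 1040 in WT_bsf, log2 difference -1.06) and of Apoc1 (537 and 476 against 848 and 944, -0.78). The main Apoe transcript had 667 and 610 CPM against 954 and 814 (-0.40). The long Vcam1 transcript had 423 and 248 CPM against 409 and 399 (-0.25). Pebp1 had more reads in DCAT_bsf, with 4229 and 3857 CPM against 3164 and 3647 in WT_bsf (0.29). The short transcript gave 75% and 72.3% of Vcam1 reads in WT_bsf (Wilson 95% intervals 66.1 to 82.2 and 65.0 to 78.5) and 58.1% and 64.7% in DCAT_bsf (45.7 to 69.5 and 52.8 to 75). The sign of the count difference followed that of the tail difference for Apoe, Apoc1 and the short Vcam1 transcript and not for Pebp1. Leydig, Sertoli, macrophage, peritubular and erythroid sums were lower in DCAT_bsf and late spermatid and spermatocyte sums higher, as given above. Without Insl3 the Leydig sums of the genotypes overlapped. The part of these cell type sums in the counts was not tested.

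Genes of related pathways were taken from 3 lists. Most of their genes were also kept in the table through busulfan groups alone, which favoured a rise, so their counts say nothing particular to a list. Of 62 genes of lipoproteins and cholesterol, 19 were in the tables, among them the Leydig marker Star and the Sertoli marker Clu. After busulfan 15 were higher and 1 was lower in each genotype (median log2 change 2.48 in wild type and 2.13 in the mutant, against 0.09 and 0.14 over all transcripts). Among all transcripts, 35.4% in wild type and 31.3% in the mutant were higher, and 38.3% and 31.4% were lower. Of the 15, 13 in wild type and 12 in the mutant were kept through busulfan groups alone. They were 86.7% and 80% of the list genes kept that way, against 69.8% and 61.1% of all transcripts kept that way. Named by the size of the fitted change in wild type were Lrp8, a receptor for apolipoprotein E, Ebp, a sterol isomerase, and Fabp5, a fatty acid-binding protein. Lrp8 had 0 reads in both WT_veh libraries and 14 and 16 in WT_bsf, at least 3.48-fold higher (against 3 reads in each vehicle library). Fabp5 went from 1 and 2 reads to 37 and 71 in wild type and from 1 and 0 to 17 and 33 in the mutant. Ebp went from 0 and 1 to 16 and 28 in wild type and from 0 and 2 to 10 and 21 in the mutant. Msmo1, a sterol demethylation enzyme, went in the mutant from 0 and 3 reads to 23 and 15. The gene that fell was Fdft1, the squalene synthase (-1.96 in wild type, SE 0.53, and -1.23 in the mutant, SE 0.53). Fdft1 reached 10 reads in both replicates only in WT_veh (14 and 20 reads, against 4 and 9 in WT_bsf and 5 and 10 in DCAT_bsf). This favoured a fall, so its change is a description. For tail length between DCAT_bsf and WT_bsf, 13 of these genes had enough reads and 0 passed (limma, with 1 at an unadjusted p under 0.05: Cyp51, a sterol demethylase, at 42.1 nt, adjusted p = 0.214). Over all transcripts 1.35% passed in either direction, so a count of 0 among so few genes is no result. Their differences ran from -12.9 to 42.1 nt with a median of 0.72 nt, against 2.85 nt over all transcripts.

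Of 37 adhesion genes 12 were in the tables. In wild type 8 were higher and 1 was lower after busulfan, and in the mutant 6 and 1 (median log2 change 2.42 and 1.65, against 0.09 and 0.14 over all transcripts). Over all transcripts 35.4% and 31.3% were higher and 38.3% and 31.4% lower. All 8 and all 6 were among the 10 adhesion genes kept through busulfan groups alone. They were 80% and 60% of these 10, against 69.8% and 61.1% of all transcripts kept that way. Among them was the tetraspanin Cd81 (2 and 6 reads to 44 and 93 in wild type, 5 and 9 to 26 and 53 in the mutant). The junctional adhesion molecule F11r went from 4 and 1 reads to 29 and 38 in wild type and from 2 and 2 to 24 and 20 in the mutant. Cd63, another tetraspanin, was higher in wild type (2 and 1 to 18 and 27 reads), and Jam2 in the mutant (1 and 1 to 8 and 7). Nectin3, which joins spermatids to Sertoli cells, fell by 4.12 on the log2 scale in wild type (SE 0.64) and fell by 2.53 in the mutant (SE 0.53). Nectin3 was kept through vehicle groups alone (16 and 35 reads in WT_veh, 3 and 1 in WT_bsf, 5 and 7 in DCAT_bsf), which favoured a fall. Among 5 adhesion genes with enough reads, 0 passed for tail length after busulfan, beside 1.35% of all transcripts (limma, also 0 at an unadjusted p under 0.05, with differences from -2.53 to 37.4 nt).

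Of 37 genes of the RAF kinase pathway, on which PEBP1 acts, 12 were in the tables. In wild type 6 were higher and 1 was lower, and in the mutant 7 and 1 (median log2 change 1.44 and 1.40, against 0.09 and 0.14 over all transcripts). All 6 and all 7 were among the 9 genes of this list kept through busulfan groups alone. They were 66.7% and 77.8% of these 9, against 69.8% and 61.1% of all transcripts kept that way. The shares over all transcripts were those given for adhesion genes. The GTPase Rap1a went from 1 and 2 reads to 12 and 16 in wild type and from 1 and 3 to 10 and 13 in the mutant. Lamtor1, a lysosomal scaffold of MAP kinase signalling, went from 2 and 1 reads to 13 and 26 in wild type, and the 14-3-3 gene Ywhah from 7 and 3 to 31 and 69. In the mutant Rap1b went from 3 and 4 to 21 and 20, and the 14-3-3 gene Ywhab from 5 and 9 to 36 and 36. Pebp4, a relative of Pebp1, fell by 3.94 on the log2 scale in wild type (SE 0.71) and fell by 2.17 in the mutant (SE 0.65), unlike Pebp1 itself. Pebp4 was kept through WT_veh alone (24 and 51 reads, against 1 and 6 in WT_bsf and 0 and 15 in DCAT_bsf), which favoured a fall. Of 7 genes with enough reads 0 passed for tail length after busulfan, beside 1.35% of all transcripts (limma, 2 at an unadjusted p under 0.05: Ywhaq at -32.3 nt and Rap1b at -31.3 nt).

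The transcripts of other genes whose level was most like that of each gene were found over the 8 libraries, by Pearson's r of log2 CPM. These 8 points share the step between vehicle and busulfan, so the values are a description. For the main Apoe transcript they were Serinc3 (r = 0.996), Gm2a (0.996) and Defb19 (0.995), among 2008 transcripts. For Apoc1 they were Tmed3 (0.992), Tmed9 (0.988) and Fads2 (0.986). For the short Vcam1 transcript they were Pkm (0.995), Insl3 (0.992) and Tmem184a (0.990). For Pebp1 they were Dcun1d1 (0.977), Srp9 (0.933) and Ddx5 (0.921).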

How the data were processed

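Poly(A) RNA of 8 testes was sequenced by Nanopore direct RNA sequencing, where each read is 1 molecule. Deposited values were raw read counts per transcript and a poly(A) tail length in nt per read, estimated by the authors with Nanopolish after Guppy, Minimap2 (version 2.20-r1061 per the labels) and Deeplexicon demultiplexing. The authors aligned to GENCODE transcripts on GRCm38 and dropped transcripts that did not reach 10 reads in both replicates of any condition. The deposited log2 fold changes and adjusted p-values of their DESeq2 comparisons of genotypes were not used.

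Counts were tested with edgeR 4.0.16 (R 4.3.3; TMM, quasi-likelihood, 8 libraries in 4 groups) and mean tails with limma 3.58.1 (at least 10 reads in each of 4 libraries, eBayes trend), both adjusted by Benjamini-Hochberg over all transcripts tested, threshold 0.05, two-sided. DESeq2 1.42.0, other scalings and filters, the replicate block and leaving out libraries were alternatives. CPM values given per library are not scaled by TMM. The genes and lists were chosen with earlier results of these data known. Named list genes were up to 3 per direction with the largest change that passed, and 3 most alike per gene.

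The paper states that replicates 1 and 2 were 2 multiplexed sequencing libraries, each with 1 mouse per group, so numbers pair the samples. Deviations of same-numbered samples correlated at -0.13 to 0.21 over 2055 transcripts. Replicates were single mice, and their counts differed by more than sampling noise. Only 2 per group limit the precision. Sequences are from GENCODE vM21.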

Additional observations from a re-analysis of the deposited data

How the results depend on the processing

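Read counts of busulfan against vehicle in the mutant gave 1746 calls, 1095 with DESeq2 and 712 to 1795 with a library left out (712 without DCAT_veh replicate 2, the deepest). Counts of DCAT_bsf against WT_bsf gave 162 calls, 47 with DESeq2 and 7 to 360 with a library left out (7 and 15 without WT_bsf replicates 1 and 2, 360 and 13 without DCAT_bsf replicates 1 and 2). DCAT_veh against WT_veh gave 1 call in place of 0 when only the 4 vehicle libraries were fitted. For tails after vehicle, the single call was lost (0) with the median tail, with log2 means, without the eBayes trend and with the replicate block, and leaving out a library gave 0 to 9 (0 without WT_veh replicate 2, 9 without DCAT_veh replicate 2). Pebp1 was not called there under any alternative (adjusted p 0.0523 to 0.999). For tails after busulfan, 16 calls became 29 with the median tail, 25 with centred libraries, 27 with the replicate block, 9 with at least 20 reads, 7 without the trend and 16 to 25 with a library left out (25 without DCAT_bsf replicate 1). Signs turned in results that had not passed. For the vehicle counts, Pebp1 changed from 0.05 to -0.0115 with RLE scaling and -0.0116 with DESeq2, and ranged from -0.13 to 0.41 with a library left out (turned without WT_veh replicate 1). With a library left out, the vehicle difference ranged from -1.37 to 0.42 for ENSMUST00000173739 and from -0.40 to 0.16 for ENSMUST00000174064 of Apoe, and from -1.23 to 0.46 for the short Vcam1 transcript, each turned without DCAT_veh replicate 2. For Apoe ENSMUST00000174355 it ranged from -2.40 to 3.16 (turned to -0.44 without WT_veh replicate 2 and to -2.40 without DCAT_veh replicate 2). Busulfan against vehicle for Pebp1 ranged from -0.67 to 0.16 in wild type and from -0.15 to 0.0201 in the mutant, turned without replicate 2 of WT_veh and DCAT_veh. The replicate block changed no call of Pebp1. Where a cause is not given by fewer samples or transcripts, the cause was not tested. Vehicle libraries held at most 14 reads of Apoe, Apoc1 or Vcam1 each, which limits any tail comparison there.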
